A study of Homo sapiens with 16 samples.

Results

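The 49 genes described here encode SR proteins, hnRNPs and other RNA-binding proteins that regulate splicing. They were taken by gene symbol from a fixed list and comprised 11 SR genes (SRSF1 to SRSF11), 4 SR-related genes (TRA2A, TRA2B, SRRM1 and SRRM2), 20 hnRNP genes (with SYNCRIP and PCBP2) and 14 other regulators. Each matched 1 of the 58676 Ensembl gene identifiers in the count files, and all 49 passed the filter on low counts in both cell lines. The RNA came from 2 human lines, A549 of lung cancer and SUM159 of triple-negative breast cancer, after 16 h with 2 µM palbociclib, 3 µM indisulam or both drugs together, or from untreated cells. Palbociclib inhibits the kinases CDK4 and CDK6 that drive cells out of G1, and indisulam brings the splicing factor RBM39 to the DCAF15 ubiquitin ligase, which marks it for degradation. There were 2 libraries in each of the 8 groups. The study calls its RNA-seq duplicates technical, so the spread between them leaves out variation between independent cultures, and each tissue type is represented by 1 line.

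The libraries held 18306636 to 34075588 counts in gene rows. Markers fitted the line labels in most respects. EPCAM lay at 20.3 to 26.2 CPM (counts scaled to library size) in A549 libraries and at 0.0965 to 0.600 CPM in SUM159 libraries, whereas VIM was at 699 to 930.0 CPM in A549 and at 2755 to 4144 CPM in SUM159. The hormone receptor genes ESR1 and PGR did not exceed 0.796 and 0.0401 CPM in SUM159. PECAM1, an endothelial marker, was at 17.4 to 38.9 CPM and PTPRC, a leukocyte marker, at 3.05 to 4.54 CPM in SUM159, and their part in the results was not tested.

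SR proteins carry an arginine- and serine-rich domain, bind exonic enhancers and help the spliceosome to recognise neighbouring splice sites. The hnRNPs coat nascent transcripts, and many of them repress exons or compete with SR proteins for the same region. Genes of both families commonly control their own level by splicing in a so-called poison exon, which brings a stop codon in the frame and sends the mRNA to nonsense-mediated decay (NMD). In GENCODE release 44, 39 of the 49 genes had at least 1 transcript annotated as an NMD target, among them all 11 SR genes, all 4 SR-related genes, 16 of 20 hnRNP genes and 8 of 14 other regulators. Transcripts with a retained intron were annotated for 41 genes.

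In 19 of the genes, 26 exons were found that are present in an NMD transcript, lie within 1 intron of the main transcript and hold the stop codon of the NMD transcript. The 9 printed here were picked by hand from genes whose counts moved with indisulam. They are given because they hold the stop codon that sets an NMD transcript apart from the main one. SRSF4, RBFOX2, TIA1 and RBM5 also had such exons and moved with indisulam in both lines, and theirs are not printed. SRSF3 had 2 such exons and SRSF7 had 3, of which 1 each was picked by hand. Each line starts with the last 20 bases of the intron before the exon and continues to the stop codon, which is in capitals, and the sequence is from the GRCh38 reference.
HNRNPL (chr19:38841624-38841702, minus strand): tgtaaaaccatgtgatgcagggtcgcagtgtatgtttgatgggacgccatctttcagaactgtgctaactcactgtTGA
HNRNPLL (chr2:38577956-38578022, minus strand): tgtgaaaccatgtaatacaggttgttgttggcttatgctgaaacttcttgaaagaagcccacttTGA
HNRNPH1 (chr5:179621951-179621996, minus strand): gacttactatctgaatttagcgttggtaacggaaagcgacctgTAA
SRRM1 (chr1:24647059-24647084, plus strand): tgtgatttatgatttaaaaggccTGA
RBM25 (chr14:73088350-73088379, plus strand): tgttggtttgcttgttccaggttgggaTGA
SRSF3 (chr6:36599801-36599854, plus strand): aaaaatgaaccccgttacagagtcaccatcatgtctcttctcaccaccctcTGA
SRSF7 (chr2:38749319-38749366, minus strand): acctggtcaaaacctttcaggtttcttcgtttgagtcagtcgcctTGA
TRA2A (chr7:23522289-23522452, minus strand): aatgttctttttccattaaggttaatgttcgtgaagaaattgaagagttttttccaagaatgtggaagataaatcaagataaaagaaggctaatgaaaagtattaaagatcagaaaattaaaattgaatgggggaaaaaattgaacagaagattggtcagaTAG
TRA2B (chr3:185931772-185931872, minus strand): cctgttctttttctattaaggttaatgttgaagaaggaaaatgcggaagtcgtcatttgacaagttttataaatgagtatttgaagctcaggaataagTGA
All 26 introns ended in AG at these exons. The paralogs HNRNPL and HNRNPLL shared 17 of the 20 intron bases printed, and TRA2A and TRA2B shared 26 of the first 30 bases. Annotation support varied between these transcripts. The printed exons of HNRNPL, HNRNPH1, SRRM1, SRSF3 and TRA2B came with a transcript of support level 5, the weakest. A count per gene adds productive and NMD transcripts together, so the use of these exons was not measured.

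In untreated cells the genes differed widely in level when counts were divided by exon length. That length spans the exons of every annotated transcript, NMD and retained-intron ones included, so the ranking depends on the annotation. HNRNPA1, a general splicing repressor, ranked first in both lines, with a mean of 218 CPM per kb in A549 and 241 in SUM159. HNRNPAB followed at 168 and 219.9 CPM per kb, and among SR genes SRSF2 was highest at 110.0 and 148 CPM per kb. The lowest levels were those of MBNL2 in A549 (3.94 CPM per kb) and RBM5 in SUM159 (5.90 CPM per kb). HNRNPA2B1 had more counts than HNRNPA1 before division by exon length. Its untreated means were 1997 CPM in A549 and 2094 in SUM159, beside 1462 and 1611 for HNRNPA1. HNRNPA1 has many near-identical processed copies in the genome, so its counts are uncertain.

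Between the untreated lines, 27 of the 49 genes were higher in SUM159 and 12 were lower by edgeR's quasi-likelihood test at an adjusted p under 0.05, where 38.3% of the 17764 genes tested were higher and 38.0% lower. Scaling to total counts gave 31 higher and 8 lower. The largest difference was that of MBNL2, a muscleblind protein that regulates developmental exons, with a log2 difference of 1.94 (SE 0.0696, adjusted p = 2.98e-18). QKI, a STAR-family regulator of splicing in mesenchymal cells, was higher by 1.28 on the log2 scale and SYNCRIP by 0.75. SRSF5 (-0.72), HNRNPUL2 (-0.71) and HNRNPUL1 (-0.67) were the furthest below their level in A549. SYNCRIP and HNRNPUL2 each share exons with a gene on the same strand, so their counts are uncertain.

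Palbociclib lowered most of the genes. In A549, 39 of 49 fell and 2 rose, against 21.1% lower and 22.0% higher of the 15744 genes tested, and the median log2 change of the 49 was -0.37, against 0.028 over all genes. In SUM159, 41 fell and 4 rose, against 29.0% lower and 25.5% higher of 16080 genes, with a median of -0.435 against 0.019. In both lines 38 genes fell, 77.55% of the 49, against 19.1% of the 14122 genes tested in both. With total counts, 37 fell and 5 rose in A549, against 16.5% lower and 27.3% higher of all genes, and 38 fell and 6 rose in SUM159, against 20.7% and 34.5%. At a log2 change of at least 0.5 in size, 13 genes were lower and 1 higher in A549 (background 6.98% lower and 9.22% higher), and 24 were lower and none higher in SUM159 (background 8.66% lower and 13.8% higher).

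Abundant genes as a whole also leaned downwards. Among the 1485 genes of A549 at or above 129 CPM, the lower quartile of the 49 genes' means, 41.68% were lower with palbociclib, and 33 of the 37 regulators in that range were lower. In SUM159 the corresponding cut-off of 155.8 CPM left 1289 genes, of which 60.43% were lower, and again 33 of 37 regulators. These abundance limits were chosen after seeing the data and carry no test.

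The hnRNP genes fell most uniformly, 19 of 20 in A549 and 20 of 20 in SUM159, with median log2 changes of -0.493 and -0.617. HNRNPLL in A549 was the 1 hnRNP gene that did not pass (-0.04). HNRNPH3 and HNRNPH1, which bind G-rich sequences, and HNRNPD (AUF1), which binds AU-rich elements, had the largest falls in A549. HNRNPH3 was at 232 and 229 CPM untreated, 124 and 121 under palbociclib, 165 and 161 under indisulam and 104 and 109 under both drugs in A549. In SUM159 it was at 309 and 302 CPM untreated, 171 and 164 under palbociclib, 246 and 248 under indisulam and 128 and 134 under both drugs. The 4 groups did not overlap in either line and stood in the same order, with palbociclib libraries far below untreated ones. Its log2 change with palbociclib was -0.91 (SE 0.0413, adjusted p = 1.99e-10) in A549 and -0.87 (SE 0.0381, adjusted p = 5.67e-12) in SUM159 by edgeR.

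HNRNPH1 libraries of A549 had 597 and 618 CPM untreated, 358 and 311 under palbociclib, 416 and 420.3 under indisulam and 215 and 255 under both drugs. Those of SUM159 had 562 and 530.5 CPM untreated, 314 and 324 under palbociclib, 414 and 436 under indisulam and 233 and 229 under both drugs. As for HNRNPH3, untreated libraries were highest and combination libraries lowest, without overlap, and the edgeR change with palbociclib was -0.86 (SE 0.0696, adjusted p = 1.64e-07) in A549 and -0.78 (SE 0.0387, adjusted p = 2.92e-11) in SUM159. HNRNPD was at 334 and 327 CPM untreated, 207 and 195 under palbociclib, 254 and 253 under indisulam and 164 and 171 under both drugs in A549. Its SUM159 libraries were at 548 and 529 CPM untreated, 305 and 304 under palbociclib, 512 and 503 under indisulam and 279 and 289 under both drugs. Palbociclib and combination libraries of SUM159 lay well apart from the other two groups, and the palbociclib change was -0.72 (SE 0.0425, adjusted p = 4.84e-09) in A549 and -0.82 (SE 0.0351, adjusted p = 3.63e-12) in SUM159.

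Among the SR genes, 7 of 11 fell and 1 rose in A549, and 9 fell and 1 rose in SUM159. SRSF4 fell by 0.64 in A549 and by 0.66 in SUM159 on the log2 scale, and SRSF1, the founding SR protein, fell by 0.21 and 0.68. SRSF8, a retrocopy of SRSF2, was the 1 gene with opposite calls in the lines. Its A549 libraries had 34.4 and 34.8 CPM untreated, 37.6 and 40.1 under palbociclib, 48.7 and 46.2 under indisulam and 53.2 and 52.5 under both drugs. Its SUM159 libraries had 38.1 and 40.2 CPM untreated, 33.5 and 32.3 under palbociclib, 50.5 and 46.4 under indisulam and 42.6 and 48.2 under both drugs. Palbociclib libraries were above untreated ones in A549 and below them in SUM159, with edgeR changes of 0.17 (SE 0.0598, adjusted p = 0.0321) and -0.25 (SE 0.0684, adjusted p = 0.00457). The call in A549 did not pass in the fit of those 2 groups alone, with DESeq2, without the low-count filter, or without either untreated library, palbociclib replicate 2 or either indisulam library, where the log2 change was between 0.117 and 0.175.

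SRSF5, an SR protein that responds to growth signals, had 178 and 193 CPM untreated, 196 and 180.1 under palbociclib, 234 and 232 under indisulam and 183 and 228 under both drugs in A549. In SUM159 it had 132 and 114 CPM untreated, 156 and 155 under palbociclib, 159 and 172 under indisulam and 184 and 174 under both drugs. Untreated and palbociclib libraries overlapped in A549 (log2 change 0.02), whereas in SUM159 all treated libraries lay above the untreated ones. With palbociclib the change in SUM159 was 0.34 (SE 0.0555, adjusted p = 6.73e-05) by edgeR.

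Among the other regulators, MBNL2 rose in both lines and was the only gene of the 49 to do so with palbociclib. It was at 20.5 and 20.6 CPM untreated, 33.8 and 30.2 under palbociclib, 27.9 and 28.2 under indisulam and 40.9 and 39.0 under both drugs in A549. In SUM159 it was at 87.3 and 85.3 CPM untreated, 128 and 115 under palbociclib, 102 and 98.2 under indisulam and 131 and 141 under both drugs. Groups did not overlap, untreated libraries were lowest and combination libraries highest in both lines, and the palbociclib change was 0.63 (SE 0.073, adjusted p = 7.14e-06) in A549 and 0.49 (SE 0.0533, adjusted p = 6.10e-07) in SUM159 by edgeR. Its paralog MBNL1 fell by 0.18 and 0.36.

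RBM5, a regulator of apoptotic exons, had 44.6 and 46.8 CPM untreated, 47.9 and 43.3 under palbociclib, 35.8 and 36.1 under indisulam and 23.2 and 29.8 under both drugs in A549. SUM159 libraries had 62.5 and 59.6 CPM untreated, 76.6 and 79.2 under palbociclib, 49.1 and 57.4 under indisulam and 57.1 and 49.1 under both drugs. Palbociclib libraries overlapped the untreated ones in A549 and lay above them in SUM159, where the change was 0.35 (SE 0.0698, adjusted p = 0.000384) by edgeR. RBM5 shares exons with the neighbouring RBM6 on the same strand, so its counts are uncertain. TIA1, which helps U1 snRNP bind weak donor sites, rose in SUM159 (0.21), with 0.18 in A549, which did not pass.

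**Figure D1:**
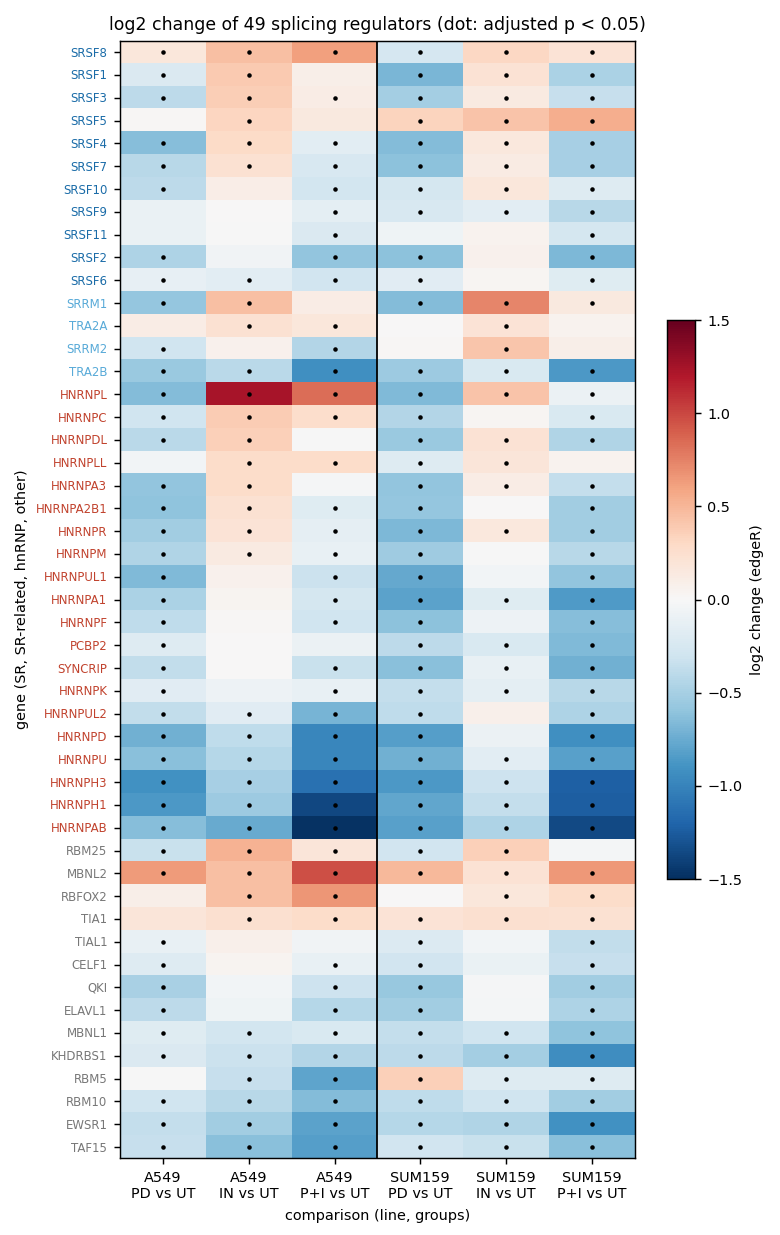
log2 change of each of the 49 genes (rows, names coloured by family) in the 3 treatments against untreated cells (UT) of each line (columns), from edgeR; PD is palbociclib, IN is indisulam and P+I is the combination. Red is higher and blue lower than untreated, and a dot marks an adjusted p under 0.05. The palbociclib columns are mostly blue, with 39 and 41 falls, and the indisulam columns are mixed, with 20 and 19 rises and 14 and 16 falls.

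Indisulam moved the genes in both directions, as it did all genes tested. In A549, 20 of 49 rose and 14 fell, against 23.3% higher and 25.9% lower of all genes tested, and in SUM159, 19 rose and 16 fell, against 21.9% higher and 24.9% lower. The median log2 change of the 49 was 0.042 and 0.012, close to the 0.009 over all genes in each line. Few changes were large. At a log2 change of at least 0.5 in size, 2 genes were higher and 5 lower in A549 (background 9% and 13.1%) and 1 was higher and 1 lower in SUM159 (background 9.65% and 7%). Among the abundant genes described above, 27.74% were higher and 33.8% lower in A549, beside 13 and 11 of 37 regulators, and 14.04% were higher and 54.07% lower in SUM159, beside 12 and 13 of 37. Both lines called 17 of the genes (34.69%) higher and 11 (22.45%) lower, where 13.45% and 17.46% of the 14122 genes tested in both lines were so called. None of the 49 was called in opposite directions, which was rare among all genes too, 257 of 14122. With total counts, SUM159 had 21 rises and 12 falls, against 27.0% higher and 19.6% lower of all genes.

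Those higher in both lines were SRSF1, SRSF3, SRSF4, SRSF5, SRSF7, SRSF8, TRA2A, SRRM1, HNRNPA3, HNRNPDL, HNRNPL, HNRNPLL, HNRNPR, TIA1, RBFOX2, MBNL2 and RBM25. Those lower in both lines were TRA2B, HNRNPAB, HNRNPH1, HNRNPH3, HNRNPU, TAF15, EWSR1, MBNL1, RBM5, RBM10 and KHDRBS1.

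Of the 11 SR genes, 6 rose and 1 fell in A549, and 7 rose and 1 fell in SUM159, with median log2 changes of 0.231 and 0.13. SRSF8 (values above) had the largest rise of the family in A549, 0.45 (SE 0.0595, adjusted p = 2.07e-05), and SRSF5 in SUM159, 0.43 (SE 0.0557, adjusted p = 8.39e-06). SRSF1 rose by 0.39 in A549 and 0.22 in SUM159, and SRSF3, with an annotated NMD exon printed above, by 0.37 and 0.13. SRSF6 fell in A549 (-0.16) and SRSF9 in SUM159 (-0.16). SRSF2 and SRSF11 passed in neither line.

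Among the SR-related genes, the paralogs TRA2A and TRA2B, which bind GAA-rich enhancers, moved apart. TRA2A rose by 0.23 in A549 and 0.20 in SUM159, and TRA2B fell by 0.40 and 0.23 on the log2 scale. SRRM1, a coactivator that bridges SR proteins and the spliceosome, had the largest rise of all 49 genes in SUM159. Its A549 libraries had 180.3 and 178 CPM untreated, 126 and 115 under palbociclib, 252 and 238 under indisulam and 188 and 198 under both drugs. Its SUM159 libraries had 226 and 208 CPM untreated, 139 and 138 under palbociclib, 357 and 367 under indisulam and 242 and 238 under both drugs. Indisulam libraries were highest and palbociclib libraries lowest in both lines, with no overlap between groups. By edgeR the indisulam change was 0.45 (SE 0.0499, adjusted p = 4.01e-06) in A549 and 0.74 (SE 0.0406, adjusted p = 4.98e-10) in SUM159. SRRM2, its larger partner, rose in SUM159 (0.42), with 0.07 in A549, which did not pass.

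The hnRNP genes went both ways. In A549, 8 of 20 rose and 6 fell, and in SUM159, 5 rose and 8 fell. HNRNPL, which binds CA-rich elements, had the largest rise of all 49 genes with indisulam in A549. It had 243 and 234 CPM untreated, 155 and 149 under palbociclib, 561 and 563 under indisulam and 416 and 438 under both drugs in A549. In SUM159 it had 260.0 and 257 CPM untreated, 165 and 161 under palbociclib, 344 and 351 under indisulam and 242 and 244 under both drugs. Indisulam libraries were highest in both lines and palbociclib libraries lowest, but combination libraries lay above untreated ones in A549 and below them in SUM159. The edgeR change with indisulam was 1.24 (SE 0.0418, adjusted p = 6.08e-11) in A549 and 0.43 (SE 0.0344, adjusted p = 3.65e-08) in SUM159. HNRNPL shares exons with an unnamed gene on the same strand. Its paralog HNRNPLL rose by 0.28 and 0.18.

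HNRNPAB, an abundant A/B-type hnRNP, lay at the other end. A549 libraries held 359 and 354 CPM untreated, 226 and 229.6 under palbociclib, 212 and 209.9 under indisulam and 127 and 128 under both drugs. SUM159 libraries held 465 and 467 CPM untreated, 268 and 261 under palbociclib, 343 and 334 under indisulam and 181 and 183 under both drugs. All treated libraries were below all untreated ones, and combination libraries were lowest in both lines. With indisulam the change was -0.76 (SE 0.0374, adjusted p = 1.35e-09) in A549 and -0.46 (SE 0.0339, adjusted p = 1.25e-08) in SUM159 by edgeR. HNRNPH1 changed by -0.54 (SE 0.0692, adjusted p = 1.72e-05) in A549 and -0.36 (SE 0.0384, adjusted p = 8.92e-07) in SUM159, HNRNPH3 by -0.50 and -0.31, and HNRNPU, a nuclear matrix protein, by -0.43 and -0.16. HNRNPF, closely related to HNRNPH1, was at 0.02 and -0.07 and passed in neither line.

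Of the 14 other regulators, 4 rose and 6 fell in each line. RBM25, a U1-associated factor, rose in both. In A549 it was at 194 and 212 CPM untreated, 169 and 153 under palbociclib, 293 and 288 under indisulam and 222 and 239.7 under both drugs. In SUM159 it was at 198 and 193 CPM untreated, 159 and 162 under palbociclib, 248 and 256 under indisulam and 197 and 188 under both drugs. Indisulam libraries stood above all others, and untreated and combination libraries overlapped in SUM159. The edgeR change was 0.52 (SE 0.0554, adjusted p = 3.05e-06) in A549 and 0.36 (SE 0.0377, adjusted p = 7.15e-07) in SUM159. RBFOX2 and MBNL2 also rose in both lines, RBFOX2 by 0.45 and 0.17 and MBNL2 by 0.45 and 0.21.

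TAF15 and EWSR1, of the FET family that couples transcription and splicing, both fell. TAF15 was at 307 and 296 CPM untreated, 234 and 242 under palbociclib, 196 and 193 under indisulam and 166 and 174 under both drugs in A549. It was at 355 and 359.8 CPM untreated, 289.6 and 296 under palbociclib, 281 and 284 under indisulam and 234 and 228 under both drugs in SUM159. In both lines the order from high to low was untreated, palbociclib, indisulam and combination, without overlap. Its edgeR change with indisulam was -0.63 (SE 0.0422, adjusted p = 2.65e-08) in A549 and -0.34 (SE 0.0343, adjusted p = 5.01e-07) in SUM159. TAF15 shares exons with an unnamed gene on the same strand, so its counts are uncertain.

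EWSR1 had 358 and 365 CPM untreated, 285 and 281 under palbociclib, 252 and 252 under indisulam and 199 and 214 under both drugs in A549. It had 445 and 439 CPM untreated, 324 and 332 under palbociclib, 320.0 and 327 under indisulam and 236 and 235 under both drugs in SUM159. Palbociclib and indisulam libraries of SUM159 overlapped, both below the untreated and above the combination libraries. With indisulam it changed by -0.52 (SE 0.0413, adjusted p = 1.57e-07) in A549 and -0.45 (SE 0.0337, adjusted p = 1.46e-08) in SUM159 by edgeR.

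KHDRBS1 (Sam68), a STAR-family RNA-binding protein downstream of kinases, had the largest fall with indisulam in SUM159. Its A549 libraries had 239 and 237 CPM untreated, 205 and 204 under palbociclib, 192 and 189 under indisulam and 174 and 177 under both drugs. Its SUM159 libraries had 328 and 337 CPM untreated, 266 and 241 under palbociclib, 236 and 229.6 under indisulam and 173 and 176 under both drugs. Every treated library lay below the untreated ones, with indisulam below palbociclib and the combination lowest. The edgeR change was -0.32 (SE 0.038, adjusted p = 7.83e-06) in A549 and -0.52 (SE 0.043, adjusted p = 5.62e-08) in SUM159.

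**Figure D2:**
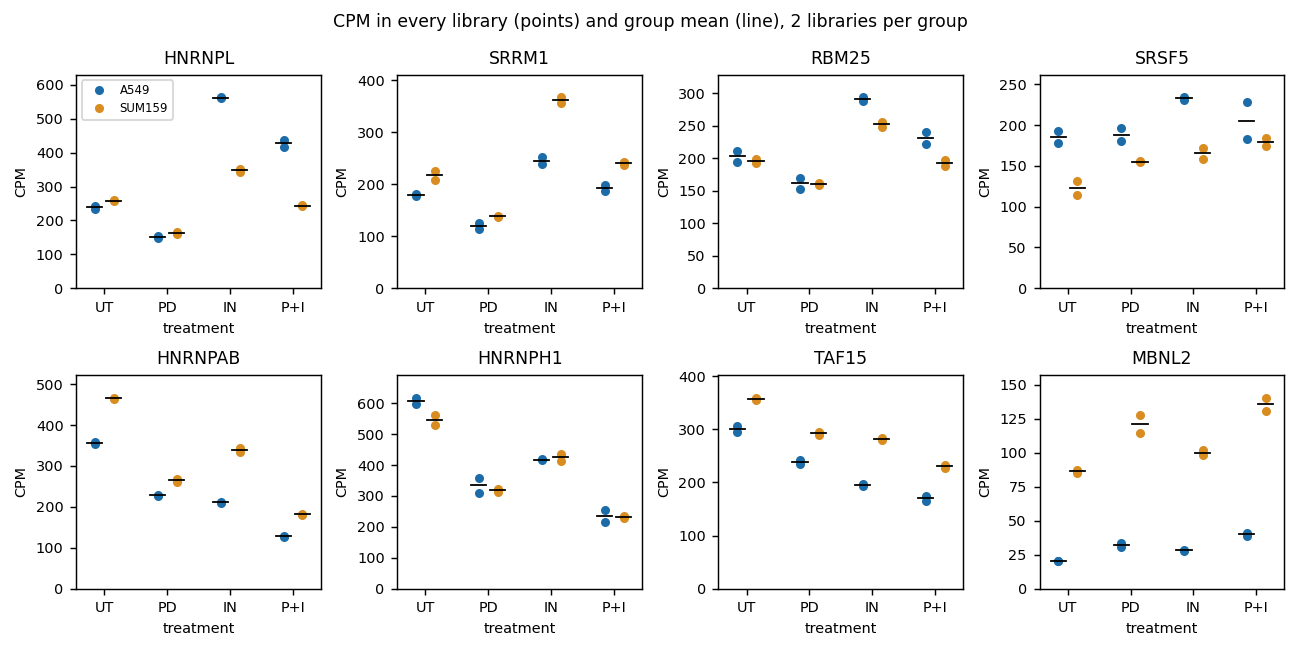
CPM on library sizes TMM-scaled within each line (vertical axis, from 0) of 8 genes in each library (points). Black lines are the means of each group of 2 libraries, with A549 in blue and SUM159 in orange. UT is untreated, PD palbociclib, IN indisulam and P+I the combination. HNRNPL, SRRM1 and RBM25 peak with indisulam, HNRNPAB, HNRNPH1 and TAF15 are lowest with the combination, and MBNL2 is highest there.

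The rises with indisulam lay among the genes that have an annotated NMD transcript. Of those 39 genes, 20 rose and 7 fell in A549, and 19 rose and 10 fell in SUM159. Of the 10 without one, none rose and 7 fell in A549, and none rose and 6 fell in SUM159. The split looked different across all protein-coding genes tested. In A549, 24.9% of 6161 genes with an NMD transcript and 23.86% of 6924 without one were higher with indisulam, and in SUM159, 22.19% of 6128 and 22.29% of 6935. Lower with indisulam were 31.26% of the genes with an NMD transcript and 25.36% of those without one in A549, and 31.77% and 25.81% in SUM159, whereas among the 49 the larger share of falls was on the side without one. The split was chosen after seeing the data, annotation depth, gene length and exon number were not matched between its sides, and it is a description without a test. Among the 21 genes that share exons with no other annotated gene, 12 rose and 3 fell in A549, and 12 rose and 4 fell in SUM159.

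Both drugs were set against the same untreated libraries, so the 2 sets of changes are given side by side without an overlap test. In both lines, SRSF1, SRSF3, SRSF4, SRSF7, SRRM1, HNRNPA3, HNRNPDL, HNRNPL, HNRNPR and RBM25 rose with indisulam and fell with palbociclib. TRA2B, HNRNPAB, HNRNPH1, HNRNPH3, HNRNPU, TAF15, EWSR1, MBNL1, RBM10 and KHDRBS1 fell with each drug. MBNL2 rose with each drug.

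Comparisons that share no library put each drug in a second setting. Indisulam added to palbociclib (the combination against palbociclib alone) raised 21 genes and lowered 15 in A549, against 23.7% and 27.8% of all genes. In SUM159 it raised 18 and lowered 17, against 23.4% and 24.9%, or 21 and 13 with scaling to total counts. In A549, 17 of the 49 genes rose and 13 fell both with indisulam alone and with indisulam added, against 16.45% and 20.42% of all genes. None had opposite calls, which was rare among all genes too, 58 of 15744. In SUM159, 15 rose and 14 fell in both settings, against 15.9% and 20.32% of the 14122 genes tested in both lines. Again no regulator had opposite calls, beside 60 of those 14122 genes. HNRNPL rose by 1.49 in A549 and by 0.58 in SUM159 when indisulam was added, and SRRM1 by 0.69 and 0.80. HNRNPAB fell by 0.84 and 0.54 on the log2 scale.

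Palbociclib added to indisulam (the combination against indisulam alone) lowered 39 genes and raised 3 in A549, against 20.1% and 18.6% of all genes, and lowered 42 and raised 2 in SUM159, against 28.0% and 24.9%. With total counts these were 33 and 3 in A549, against 15.4% and 24.3%, and 41 and 3 in SUM159, against 20.2% and 33.4%. In A549, 36 genes fell and 2 rose with palbociclib in both settings, against 14.65% and 12.65% of all genes. In SUM159, 39 fell and 1 rose, against 26.29% and 17.97% of the 14122 genes tested in both lines. None of the 49 had opposite calls, and few of all genes did, 58 of 15744 in A549 and 49 of 14122 in SUM159. HNRNPH1 fell by 0.83 and 0.88 on the log2 scale, and MBNL2 rose by 0.51 and 0.44. The count of 2 rises in SUM159 (MBNL2 and RBFOX2) was 1 without either indisulam library or either combination library.

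**Figure D3:**
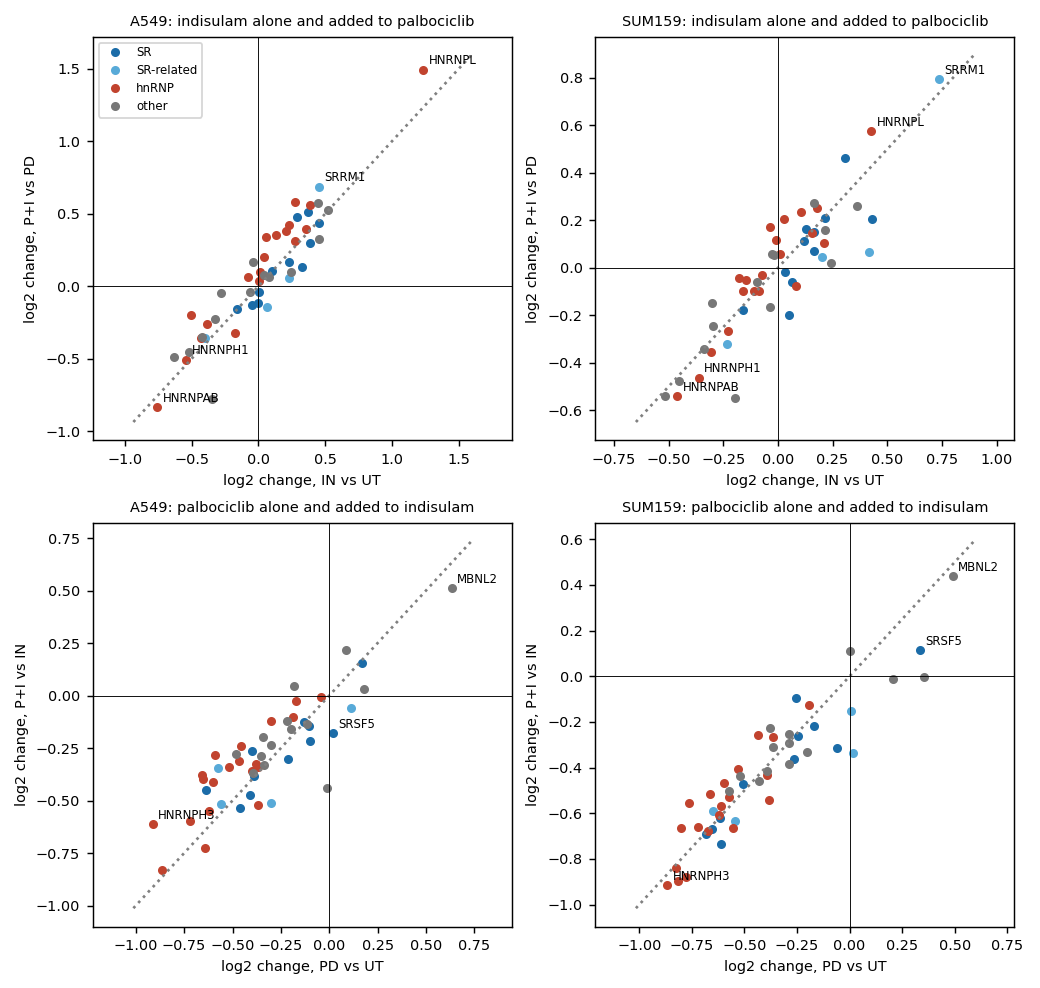
log2 change of the 49 genes with a drug alone (horizontal axes) against the change when it was added to the other drug (vertical axes), for indisulam (top) and palbociclib (bottom) in A549 (left) and SUM159 (right). The 2 axes of a panel share no library, points are coloured by family, and the dotted line marks equal change. None of the 49 was called in opposite directions on the 2 axes of any panel, and few of all genes were.

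With the combination, falls outnumbered rises in both lines. In A549, 32 of the 49 genes fell and 10 rose against untreated cells, where 30.4% of all genes were lower and 27.4% higher, and the median log2 change was -0.222. In SUM159, 39 fell and 6 rose, where 33.1% were lower and 32.2% higher, and the median was -0.461. Changes of at least 0.5 numbered 12 lower and 4 higher in A549 (background 16.8% and 13.8%) and 22 lower and 2 higher in SUM159 (background 13.6% and 20.6%). Of the abundant genes, 43.16% were lower in A549 and 69.74% in SUM159, beside 26 and 32 of 37 regulators. With total counts, 26 fell and 13 rose in A549, against 24.8% lower and 33.9% higher of all genes, and 34 fell and 10 rose in SUM159, against 23.5% and 42.4%.

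The combination changed 14 hnRNP genes downwards and 3 upwards in A549, and 19 downwards and none upwards in SUM159. HNRNPAB had the largest fall in both lines, -1.48 (SE 0.0387, adjusted p = 2.19e-13) in A549 and -1.36 (SE 0.0349, adjusted p = 2.32e-15) in SUM159 by edgeR. HNRNPH1 changed by -1.37 (SE 0.0712, adjusted p = 5.55e-10) and -1.24 (SE 0.0394, adjusted p = 3.58e-14), and HNRNPH3 by -1.11 (SE 0.0422, adjusted p = 1.36e-11) and -1.22 (SE 0.0388, adjusted p = 3.65e-14). HNRNPL was 0.84 (SE 0.0418, adjusted p = 3.44e-10) in A549 and -0.09 (SE 0.0346, adjusted p = 0.0338) in SUM159, and SRSF3 and HNRNPC also rose in A549 and fell in SUM159.

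MBNL2 had the largest rise in both lines, 0.96 (SE 0.0726, adjusted p = 3.80e-08) in A549 and 0.65 (SE 0.053, adjusted p = 1.02e-08) in SUM159 by edgeR, and SRSF8, TIA1 and RBFOX2 also rose in both. SRSF5 rose in SUM159 by 0.54 (SE 0.0553, adjusted p = 1.71e-07), with 0.15 in A549, which did not pass. RBFOX2, which binds GCAUG elements, had 105 and 101 CPM untreated, 108 and 111 under palbociclib, 139 and 142 under indisulam and 164 and 162 under both drugs in A549. Its SUM159 libraries had 183 and 194 CPM untreated, 188 and 189.6 under palbociclib, 210.5 and 213 under indisulam and 228 and 228 under both drugs. Combination libraries were highest in both lines, and untreated and palbociclib libraries overlapped in SUM159. The edgeR change with the combination was 0.66 (SE 0.0424, adjusted p = 6.17e-09) in A549 and 0.27 (SE 0.0375, adjusted p = 5.99e-06) in SUM159.

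Few genes departed from additivity, the addition of both drugs' own log2 changes. In A549, HNRNPA3, HNRNPH3, HNRNPL, HNRNPM, HNRNPUL1 and MBNL1 were higher than that total and none was lower, against 1.49% higher and 2.05% lower of all genes (7 and none, against 2.13% and 1.77%, with DESeq2's size factors). In SUM159, HNRNPUL1 was higher and SRSF11 lower, against 2.22% and 2.16%. HNRNPA3, of the A/B type, had 451 and 433 CPM untreated, 293 and 293 under palbociclib, 533 and 534 under indisulam and 428 and 448 under both drugs in A549. It had 757 and 753 CPM untreated, 504 and 495 under palbociclib, 810.3 and 817 under indisulam and 581 and 594 under both drugs in SUM159. Untreated and combination libraries overlapped in A549, and the departure there was 0.31 (SE 0.0555, adjusted p = 0.0101), beside 0.13 in SUM159, which did not pass. HNRNPH3 departed by 0.30 (SE 0.059, adjusted p = 0.014) in A549 by edgeR.

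HNRNPUL1, a DNA-damage-linked relative of HNRNPU, had 701 and 682 CPM untreated, 443 and 433 under palbociclib, 743 and 698 under indisulam and 555 and 554 under both drugs in A549. It had 482 and 471 CPM untreated, 277 and 285 under palbociclib, 471 and 459 under indisulam and 315 and 318 under both drugs in SUM159. Untreated and indisulam libraries overlapped, and palbociclib libraries were lowest, in both lines. It departed by 0.28 (SE 0.057, adjusted p = 0.0169) in A549 and 0.21 (SE 0.0483, adjusted p = 0.0225) in SUM159. SRSF11, an SR protein of neuronal microexons, had 139 and 137 CPM untreated, 133 and 124 under palbociclib, 138 and 138 under indisulam and 116 and 122 under both drugs in A549. It had 207 and 198 CPM untreated, 192 and 196 under palbociclib, 211 and 209 under indisulam and 166 and 172 under both drugs in SUM159. Combination libraries were lowest in both lines, and its departure in SUM159 was -0.25 (SE 0.0528, adjusted p = 0.0124) by edgeR. These counts depended on single libraries. In A549 the 6 departures became 0 without untreated replicate 1 or indisulam replicate 2, 1 without untreated replicate 2, palbociclib replicate 2 or indisulam replicate 1, and 12 without combination replicate 1 or without the low-count filter. In SUM159 the 2 became 0 without untreated replicate 2, 1 without either indisulam library, combination replicate 2 or with the replicate number as a block, and 4 without the filter or with total counts.

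The response to indisulam differed between the lines for 18 of the genes, none of them with opposite calls. In a fit of all 16 libraries, 9 of the 49 had a higher log2 change in SUM159 than in A549 and 9 a lower one, against 8.04% and 6.97% of 17764 genes. With total counts 10 were higher and 7 lower, against 9.05% and 5.35%, and with DESeq2 7 and 10, against 5.53% and 5.59%. HNRNPL differed most, with -0.81 (SE 0.0542, adjusted p = 4.42e-10) for the change in SUM159 minus that in A549 by edgeR. HNRNPC differed by -0.35 (SE 0.0586, adjusted p = 0.000199) and RBFOX2 by -0.28 (SE 0.0575, adjusted p = 0.00168). On the other side, HNRNPD differed by 0.30 (SE 0.0549, adjusted p = 0.000554), HNRNPAB by 0.30 (SE 0.0505, adjusted p = 0.000254) and TAF15 by 0.29 (SE 0.0555, adjusted p = 0.000856), each with the more negative change in A549.

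HNRNPC, which binds U-rich tracts and masks cryptic exons, had 1036 and 990.3 CPM untreated, 828 and 819 under palbociclib, 1362 and 1283 under indisulam and 1194 and 1238 under both drugs in A549. In SUM159 it had 1184 and 1178 CPM untreated, 887 and 860.4 under palbociclib, 1239 and 1172 under indisulam and 989 and 1028 under both drugs. Untreated and indisulam libraries overlapped in SUM159 and not in A549, where indisulam libraries were highest. The 18 differences became 11 without A549 untreated replicate 2 or without SUM159 indisulam replicate 2.

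**Figure D4:**
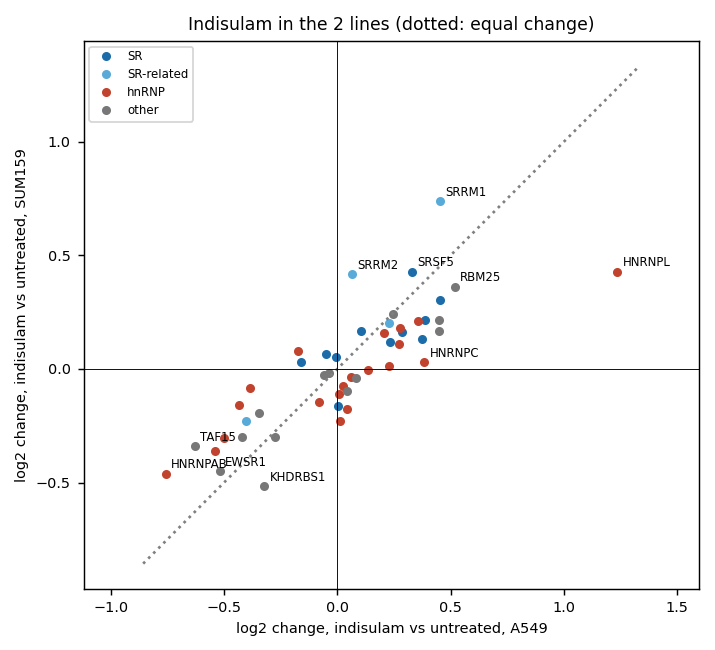
log2 change of the 49 genes with indisulam in A549 (horizontal axis) and SUM159 (vertical axis), each from the edgeR fit of its own line, coloured by family, with a dotted line of equal change. Most genes lie in the quadrants of equal sign, 17 called higher and 11 lower in both lines, and HNRNPL lies far below the line of equal change.

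For palbociclib, 4 genes (SRSF5, SRSF10, SRRM2 and RBM5) had a higher log2 change in SUM159 and 3 (SRSF1, SRSF8 and HNRNPA1) a lower one, against 9.65% and 3.15% of all genes. This split depended on the scaling. DESeq2's size factors in edgeR gave 2 higher and 9 lower, against 5.82% and 7.40%, DESeq2 gave 1 and 10, against 4.15% and 5.69%, and total counts gave 2 and 5, against 7.17% and 4.52%. RBM5 differed by 0.46 (SE 0.119, adjusted p = 0.0108) and SRSF1 by -0.37 (SE 0.079, adjusted p = 0.00231) by edgeR. This count of 7 was unstable, being 11 with DESeq2 or its size factors, 14 to 27 without any 1 of the 8 A549 libraries and 4 without SUM159 untreated replicate 2. For the combination, 9 genes had a higher and 25 a lower change in SUM159, against 19.1% and 11.8%, with a median over all genes of 0.099 in that fit. With DESeq2's size factors 4 were higher and 28 lower, against 14.9% and 17.1%, and the median over all genes was 0.0145. HNRNPL (-0.86) and HNRNPA1 (-0.51) were among the lower and RBM5 (0.66) and SRRM2 (0.59) among the higher.

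Other genes of the splicing pathway were counted in 3 lists, each to be read beside the shares over all genes tested. With palbociclib, 21.1% of all genes were lower and 22.0% higher in A549, and 29.0% and 25.5% in SUM159. With indisulam, 25.9% were lower and 23.3% higher in A549, and 24.9% and 21.9% in SUM159. With the combination, 30.4% were lower and 27.4% higher in A549, and 33.1% and 32.2% in SUM159. Of 10 genes for proteins that act at the 3′ splice site, RBM39 itself among them, 8 fell with palbociclib in A549 and 9 in SUM159. None rose. With indisulam, 6 rose and 2 fell in A549, and 5 rose and 2 fell in SUM159. With the combination 4 rose and 3 fell in A549, and 4 rose and 5 fell in SUM159. RBM39 mRNA rose by 1.06 and 1.09 with indisulam, and SF1, the branch point binding protein, by 0.73 and 0.43. U2SURP, a U2 snRNP-associated SR-like protein, fell by 0.27 and 0.13 on the log2 scale.

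Among 9 genes for SR protein kinases and nuclear import, indisulam raised 4 and lowered 2 in A549, and raised 5 and lowered 1 in SUM159. Palbociclib raised 1 and lowered 4 in A549, and raised 3 and lowered 4 in SUM159. The combination raised 3 and lowered 3, and raised 1 and lowered 4. CLK4, a nuclear kinase of SR proteins, rose with indisulam by 0.96 and 0.89, and SRPK1, the cytoplasmic kinase, fell by 0.52 and 0.27 on the log2 scale.

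The last list held 31 further RNA-binding regulators, of which 27 were tested in SUM159. With palbociclib, 21 fell and 2 rose in A549, and 20 fell and 3 rose in SUM159. With indisulam, 16 rose and 9 fell, and 16 rose and 7 fell. With the combination, 6 rose and 15 fell in A549, and 6 rose and 18 fell in SUM159. PTBP2, a paralog of PTBP1 that is usually confined to neurons, rose with indisulam by 2.19 in A549 and 1.38 in SUM159, and PTBP1 itself by 0.25 and 0.29. RBM4 rose with indisulam by 0.68 and 0.83 and with palbociclib by 0.37 and 0.41.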

How the data were processed

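Strand-specific poly(A) libraries were read as 75-base pairs. Per the methods, the authors trimmed adapters with SeqPurge and aligned reads to GRCh38, and the submitters' processing notes name HISAT2 2.2.1 and HTSeq (version not given). The deposited values are raw counts per Ensembl gene, 1 file per library. The strand setting and annotation of the counting are not given in the sources used here, so counts of overlapping genes are uncertain: 14 of the 49 genes share exons with a gene on the same strand and 14 with one on the other strand only. Reads outside gene rows, 13.2% to 16.4%, were left out.

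Symbols, coordinates and transcript types came from GENCODE release 44. The gene list and all other lists and tests were chosen with earlier results of these data known. Counts were fitted with edgeR 4.0.16 in R 4.3.3 (filterByExpr, TMM scaling, glmQLFit, glmQLFTest) on the 8 libraries of each line, or on all 16 for differences between lines, with Benjamini-Hochberg adjustment over all genes tested and a threshold of 0.05. SE is the log2 change divided by the square root of F. CPM used library sizes TMM-scaled within each line, so the CPM values of the 2 lines are not on a common scale. A count of 3 corresponds to 0.0880 to 0.164 CPM, for counting error only. Genes given with every library's value were the 3 largest rises and falls per treatment and line, the 3 largest and smallest indisulam differences between lines and the 2 largest and smallest departures from additivity, all among those past the threshold.

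Simulated counts with a log2 change of 1 in 200 genes were drawn with 2 random seeds. Their spread was that of the technical duplicates. Most changes reported here were smaller and far more genes were called, so the rates below do not carry over to them. For indisulam in A549, edgeR recovered 82.1% of 196 moved genes among 15443 and 83.7% of 196 among 15448. Of its calls, 5.29% and 5.20% were false. In SUM159 it recovered 82.6% of 195 among 15755, with 8.52% false calls, and 73.1% of 197 among 15763, with 3.36%. Alternatives were DESeq2 1.42.0, its size factors in edgeR, total counts, no filter, a replicate block, 2 groups only, a minimum change of 0.5 and leaving out each library. MATR3 has 2 identifiers and was left out of its list.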

Additional observations from a re-analysis of the deposited data

Results flagged for a closer look

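Differences between the lines in the response to indisulam passed the interaction test in the edgeR fit of all 16 libraries for 18 of the 49 genes. As the log2 change in SUM159 minus that in A549, the 3 most negative were HNRNPL at -0.81, HNRNPC at -0.35 and RBFOX2 at -0.28. The 3 most positive were HNRNPD at 0.30, HNRNPAB at 0.30 and TAF15 at 0.29. All 6 had a change of the same sign in both lines, although those of HNRNPC and HNRNPD did not pass in SUM159. The response to palbociclib differed between the lines for 7 genes and the response to the combination for 34. The palbociclib count ranged from 4 to 27 when 1 library was left out.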

How the results depend on the processing

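The duplicates are technical, and 2 libraries per group limit every count. Of 45 named changes, none reversed under any alternative. SRSF8 with palbociclib in A549, HNRNPA3 and HNRNPH3 in A549 additivity and HNRNPUL1 and SRSF11 in SUM159 additivity were the ones that lost their call somewhere.

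A minimum log2 change of 0.5 moved every count, to 1 higher and 13 lower (palbociclib), 2 and 5 (indisulam), 4 and 12 (combination), 7 and 3 (indisulam added) and 1 and 9 (palbociclib added) in A549, to 0 and 24, 1 and 1, 2 and 22, 2 and 3, and 0 and 21 in SUM159, to 0 departures from additivity in each line, to 0, 1 and 5 differences between lines for palbociclib, indisulam and the combination, and to 8 higher and 5 lower between untreated lines. Total counts gave 5 rises with palbociclib in A549 (2), 10 with the combination in SUM159 (6) and 4 departures in SUM159 (2). They raised the median log2 change over all genes in SUM159 from 0.019 to 0.124 with palbociclib and from 0.015 to 0.163 with the combination, where the 49 genes' median was -0.330 and -0.312. DESeq2 gave 1 rise with palbociclib in A549 and 11 differences between lines with palbociclib (7), DESeq2's size factors in edgeR also 11, and the fit of 2 groups only 1 such rise. No filter gave 12 departures in A549 (6), 4 in SUM159 and 1 rise with palbociclib added in SUM159 (2).

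Libraries with the same replicate number showed little common deviation, with correlations of deviations from -0.114 to 0.114 over 12 pairs of groups. Whether they were prepared as pairs cannot be told from these values. With the number as a replicate block, SUM159 departures from additivity fell to 1, and the other 26 counts stayed within 1.5 times.

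Leaving out 1 library gave 1 to 3 rises with palbociclib in A549 (1 without untreated replicate 1, palbociclib replicate 2 or either indisulam library), 0 to 12 departures in A549, 0 to 3 in SUM159, 1 to 3 rises with palbociclib added in SUM159, and 4 to 27 (palbociclib) and 11 to 20 (indisulam) differences between lines. The cause was not tested for any of these shifts.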
